A study of Homo sapiens with 9 samples.

Results

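The nucleolus is the nuclear compartment where ribosomal RNA is transcribed by RNA polymerase I and where ribosome assembly begins. The 42 nucleolar ribosome biogenesis genes described here were listed by name from what their products are known to do, together with PA2G4, RSL1D1, DDX21 and FBL. The rule itself uses no measured value, but the members were chosen with earlier results of these data known. All 42 were found among the 16612 genes of the counts table, and all 42 passed the filter on low counts. Their products fall into 6 groups by role. These are RNA polymerase I transcription (5 genes), box C/D small nucleolar ribonucleoproteins (snoRNPs, 3 genes) and box H/ACA snoRNPs (5 genes). The others are assembly of the small ribosomal subunit (12 genes), assembly of the large subunit (11 genes) and nucleolar proteins with several functions (6 genes).

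In the nucleolus the precursor of ribosomal RNA is chemically modified under the guidance of small nucleolar RNAs, cut, folded and joined with ribosomal proteins. Box C/D snoRNPs methylate the ribose of the RNA, and box H/ACA snoRNPs turn uridine into pseudouridine. Ribosome production is costly and is tied to growth, and many genes of this pathway are known targets of the transcription factor MYC, which is often active in acute myeloid leukemia (AML).

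HNT34, a human cell line from an AML, carries a chromosome 3 rearrangement at 3q26 that raises EVI1, the zinc finger transcription factor encoded at the MECOM locus. The cells were transduced with lentivirus carrying a non-targeting shRNA (NT) or an shRNA against EVI1 (sh#16 or sh#87), under an EF1a promoter with red fluorescent protein and puromycin resistance, and RNA was taken 3 days after selection. Each group had 3 libraries of polyA-selected RNA from this single cell line, and NT cells went through the same transduction and selection. The libraries of sh#87 bear the number 18 in one label field and 87 in their titles, and 87 is used here. Nothing in the labels says that the libraries of a group came from separate cultures, so p-values measure the spread between these libraries, which may be technical.

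Levels are given in CPM, the counts of a gene per 1e6 counts of its library with the library sizes scaled by TMM. The 9 libraries held between 17096170 and 43502389 counts, and the members had between 155 and 51775 counts per library. MECOM was lower in all 6 knockdown libraries (505 ± 65.4 CPM in NT, 144 ± 1.43 with sh#16 and 107 ± 1.72 with sh#87, mean ± SD, n = 3). The myeloid markers CD34, KIT, CD33, PTPRC and ANPEP had counts in every library. CD34, PTPRC and KIT fell to 15.9%, 16.6% and 39.9% of the NT level with sh#16 and to 5.80%, 11.7% and 32.2% with sh#87. CD33 was at 89% of the NT level with sh#16 and 82.2% with sh#87, and ANPEP at 105.2% and 51.5%. Of the genes looked up as markers of other cell types, CD3E had between 52 and 233 counts and PECAM1 between 608 and 6673. PECAM1 stood above KIT and CD33 in NT (216, 85.9 and 42.7 CPM), so its counts do not by themselves show other cells. COL1A1 had at most 4 counts in NT and at least 481 in knockdown libraries, and MS4A1, EPCAM and HBA1 have no row in the table. COL1A1 was higher and CD3E and PECAM1 lower in all knockdown libraries, and the part of these and the myeloid markers in the members' levels was not tested. The NT libraries stood apart from each other more than the knockdown libraries did. The biological coefficient of variation, which is the spread between libraries beyond counting error, was 25.0% in NT, 3.75% with sh#16 and 6.95% with sh#87. Mitochondrially encoded genes took 15.9%, 11.6% and 4.69% of the counts in NT replicates 1, 2 and 3, against between 2.69% and 5.97% in the knockdown libraries.

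Most transcripts of the nucleolar ribosome biogenesis genes were less abundant after EVI1 knockdown with either shRNA. Against NT, 28 of the 42 members were lower and 1 was higher with sh#16 at an adjusted p of at most 0.01 (edgeR's quasi-likelihood test over 16312 genes with Benjamini-Hochberg adjustment). Many genes of the whole table were called too, 30.2% as lower and 29.8% as higher, so the members' 66.7% lower is to be read against that background. With sh#87, 32 members were lower and 1 was higher, or 76.2% lower, beside 33.6% of all genes lower and 34.3% higher. The members' median log2 fold change was -0.80 with sh#16 and -1.05 with sh#87, while the median of all genes tested was 0.040 and 0.035. The 2 comparisons share the NT libraries, so they are not independent of each other.

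A change of at least 2-fold was less common. With sh#16, 16 called members fell at least 2-fold and 0 rose, beside 15.5% of all genes lower and 18.5% higher by this rule. With sh#87, 21 members fell and 0 rose, beside 19.9% lower and 23.9% higher. The members ran from -2.01 to 0.83 with sh#16 and from -2.64 to 0.76 with sh#87 on the log2 scale. Lower calls with both shRNAs were made for 27 members, for 5 with sh#87 alone and for 1 with sh#16 alone. Of all genes, 30.2% were lower with sh#16 and 33.6% with sh#87, and the share lower with both was not counted. The 7 members called with neither were NHP2, RRP9, RRP12, RCL1, BOP1, NOP2 and MYBBP1A.

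**Figure D1:**
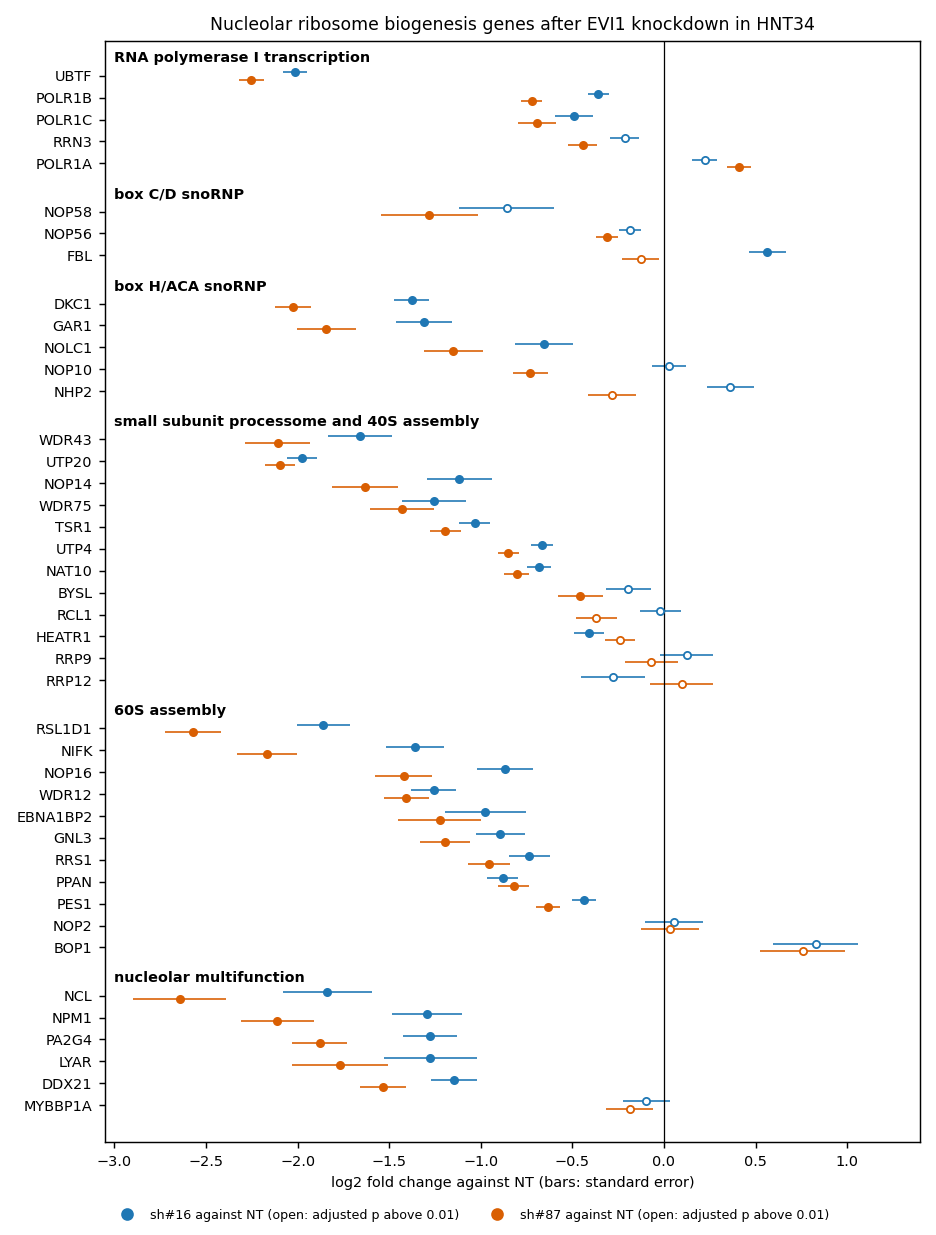
Log2 fold change against NT of the 42 members, grouped by role, for sh#16 and sh#87 with standard errors; open circles have an adjusted p above 0.01. Most points lie left of 0, with NCL lowest at -2.64 with sh#87 and BOP1 highest at 0.83 with sh#16.

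The plot of fold changes by role shows the points of sh#87 mostly to the left of those of sh#16. Summed over the 42 members, the level was 10284, 8580 and 6709 CPM in the NT libraries, 4083, 4215 and 4176 CPM with sh#16, and 3262, 3069 and 3126 CPM with sh#87. The groups did not overlap, and NT replicate 3 was the closest of the NT libraries to the knockdown libraries. NCL and NPM1 made up between 29.5% and 40.1% of this sum in NT and between 18.0% and 25.3% in knockdown libraries. Without them the sum was 5490.2 ± 720 CPM in NT, 3125 ± 42.1 CPM with sh#16 and 2564 ± 57.3 CPM with sh#87 (mean ± SD, n = 3), and the groups still did not overlap. The TMM factors ran from 0.804 to 0.959 in NT and from 1.06 to 1.09 in knockdown libraries. Without this scaling the 42 members together held 8266, 7341 and 6432 CPM in NT. They held 4408, 4483 and 4460 CPM with sh#16 and 3447, 3342 and 3358 CPM with sh#87. In bulk RNA a lower share of a transcript through fewer cells that make it cannot be told apart from less of it per cell, and a change in total RNA per cell was not measured.

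**Figure D2:**
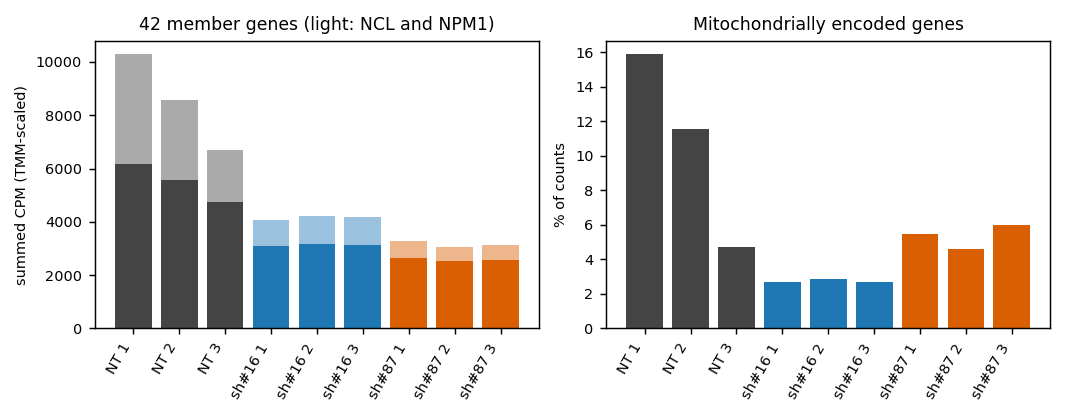
Left, summed TMM-scaled CPM of the 42 members in each library, with NCL and NPM1 as the light part; right, percent of counts from mitochondrially encoded genes in the same libraries. The sum falls from between 6709 and 10284 CPM in NT to between 3069 and 4215 CPM after knockdown, and NT replicates 1 and 2 stand out in the mitochondrial share.

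In the paired panels of summed level and mitochondrial share, NT replicate 1 is highest in both and NT replicate 3 lowest of the NT libraries in both. The part of the mitochondrial share in the members' levels was not tested beyond removing these genes, which left 28 members lower with sh#16 and 32 with sh#87.

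A short motif lay near the start of many members. The hexamer CACGTG, a palindrome that reads the same on both strands and is known as the E-box bound by MYC with MAX, was searched in windows from 250 bases before to 50 bases after the annotated start sites (RefSeq, GRCh38.p14). It was found for 18 of the 36 members with a window (50%), for 25 of 107 other ribosome biogenesis genes (23.4%) and for 1278 of 10373 tested genes with a window (12.3%). Among members called lower with both shRNAs 11 of 24 had it (45.8%), and among the rest 7 of 12 (58.3%). The rest include NOP10 and BYSL, which had it and were called lower with sh#87. The part of the motif in the members' levels was not tested. Windows of NCL, NPM1, PA2G4, UBTF and DKC1 did not hold these letters. Binding was not measured in these libraries, and bases outside the windows were not searched. By chromatin immunoprecipitation in HNT34, the paper reports EVI1 and MYC at E-box sites of the PA2G4 promoter.

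The windows below are of UTP20 and WDR43, which fell with both shRNAs, of NOP10, which differed between the shRNAs, and of FBL, which was higher with sh#16. CACGTG is in capitals, each window is printed 5′ to 3′ on the gene's strand, and positions count from 0 at the start site. The UTP20 window is chr12:101279855-101280154 on the plus strand, with the motif at -10. The WDR43 window is chr2:28894417-28894716 on the plus strand, with the motif at 3. The NOP10 window is chr15:34343087-34343386 on the minus strand, with motifs at -170 and -11. The FBL window is chr19:39846330-39846629 on the minus strand, with the motif at 6.
UTP20: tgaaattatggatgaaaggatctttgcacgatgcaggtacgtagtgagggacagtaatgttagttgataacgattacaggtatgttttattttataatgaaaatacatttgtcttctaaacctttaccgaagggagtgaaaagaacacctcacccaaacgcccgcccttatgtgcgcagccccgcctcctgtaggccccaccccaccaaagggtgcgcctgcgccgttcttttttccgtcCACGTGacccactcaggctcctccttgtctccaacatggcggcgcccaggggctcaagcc
WDR43: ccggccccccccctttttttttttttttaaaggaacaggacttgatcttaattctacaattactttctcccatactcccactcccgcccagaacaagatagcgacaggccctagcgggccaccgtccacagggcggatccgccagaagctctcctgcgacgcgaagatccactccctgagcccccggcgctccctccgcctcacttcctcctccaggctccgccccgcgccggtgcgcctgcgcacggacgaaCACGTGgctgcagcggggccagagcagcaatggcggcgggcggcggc
NOP10: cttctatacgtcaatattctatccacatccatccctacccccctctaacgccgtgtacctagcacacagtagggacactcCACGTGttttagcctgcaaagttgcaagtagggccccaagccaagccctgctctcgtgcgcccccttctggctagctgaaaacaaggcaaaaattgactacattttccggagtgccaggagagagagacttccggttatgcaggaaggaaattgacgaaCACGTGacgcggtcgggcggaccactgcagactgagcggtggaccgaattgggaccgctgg
FBL: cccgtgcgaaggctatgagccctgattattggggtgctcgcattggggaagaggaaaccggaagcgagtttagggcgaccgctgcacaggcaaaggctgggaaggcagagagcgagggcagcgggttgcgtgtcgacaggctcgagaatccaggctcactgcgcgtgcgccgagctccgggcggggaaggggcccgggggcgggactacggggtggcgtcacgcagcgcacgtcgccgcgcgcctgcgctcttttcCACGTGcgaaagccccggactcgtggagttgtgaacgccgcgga
In each of these 4 windows, which were picked for display, a motif lies within 11 bases of the start site. Motifs of other members lay between -237 and 42, both of these in EBNA1BP2.

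MYC itself was at 299, 366 and 444 CPM in NT, 256, 267 and 256 CPM with sh#16 and 111, 93.1 and 98.4 CPM with sh#87. It was lower with both shRNAs (-0.51 ± 0.13, adjusted p = 0.00665 with sh#16 and -1.87 ± 0.14, adjusted p = 1.86e-06 with sh#87, log2 fold change ± standard error). Among the NT libraries MYC was highest in replicate 3, in which the members' summed level was lowest. The part of MYC in the members' levels was not tested.

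The genes of RNA polymerase I transcription did not move together. The largest change of the group was that of UBTF, the HMG box protein that binds ribosomal DNA and recruits the polymerase (chr17:44205040-44221304). It was at 191, 189 and 182 CPM in the NT libraries, 44.6, 48.5 and 46.0 CPM with sh#16 and 41.2, 39.8 and 36.96 CPM with sh#87. The NT libraries lay close together and far above all knockdown libraries, which kept 24.8% and 21.0% of the NT level (-2.01 ± 0.066, adjusted p = 4.30e-08 and -2.25 ± 0.066, adjusted p = 1.31e-08). In the direct comparison of the shRNAs UBTF gave -0.24 ± 0.064, adjusted p = 0.0208. RRN3, the factor that links the polymerase to its promoter, was at 76.1, 84.0 and 94.6 CPM in NT, 73.4, 73.3 and 72.8 CPM with sh#16 and 62.5, 62.2 and 62.5 CPM with sh#87. Each group lay below the one before, and the change was called with sh#87 (-0.44 ± 0.079, adjusted p = 6.84e-04) and not with sh#16 (-0.21 ± 0.079, adjusted p = 0.0343). Without NT replicate 1, RRN3 passed with sh#16 too (-0.30, adjusted p = 0.0018). After a correction of each library for transcript length and GC content it was called with neither, at -0.079 with sh#87 (adjusted p = 0.532). Its pseudogenes RRN3P1, RRN3P2 and RRN3P3 held between 11.95% and 19.4% of the counts of RRN3 and these pseudogenes together.

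The polymerase subunits went in both directions. POLR1A, the largest catalytic subunit, was at 131, 147 and 155 CPM in NT, 168, 168 and 169.9 CPM with sh#16 and 190.4, 193 and 193 CPM with sh#87. All knockdown libraries lay above all NT libraries, and POLR1A was the only member called higher with sh#87 (0.41 ± 0.067, adjusted p = 3.80e-04). With sh#16 it gave 0.22 ± 0.067, adjusted p = 0.0144, which passed without NT replicate 3 (0.25, adjusted p = 0.00193). After the same correction for length and GC content both values turned to slightly below 0 and were not called. POLR1B, the second largest subunit, was at 119, 117 and 128 CPM in NT, 94.0, 92.5 and 97.0 CPM with sh#16 and 71.3, 74.5 and 74.6 CPM with sh#87. It fell in steps with no overlap between groups (-0.36 ± 0.058, adjusted p = 4.50e-04 with sh#16 and -0.72 ± 0.059, adjusted p = 3.81e-06 with sh#87). POLR1C, a subunit that RNA polymerases I and III share, was at 19.7, 23.2 and 26.0 CPM in NT, 16.6, 16.4 and 15.9 CPM with sh#16 and 14.5, 14.2 and 13.9 CPM with sh#87. Its groups did not overlap either (-0.49 ± 0.10, adjusted p = 0.00195 and -0.69 ± 0.10, adjusted p = 2.02e-04), and without sh#16 replicate 3 the first value missed the threshold (-0.47, adjusted p = 0.01002).

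None of the box C/D proteins was called lower with sh#16 in the fit of all 3 groups. FBL, fibrillarin, the methyltransferase of these particles (chr19:39834458-39846379), was at 88.8, 88.4 and 110.0 CPM in NT, 140.3, 145 and 139.5 CPM with sh#16 and 97.9, 82.2 and 83.0 CPM with sh#87. It was the only member called higher with sh#16, where every library lay above every NT library (0.56 ± 0.10, adjusted p = 8.73e-04), whereas the sh#87 libraries overlapped with NT (-0.13 ± 0.10, adjusted p = 0.276). Between the shRNAs FBL differed by -0.69 ± 0.10, adjusted p = 0.00143. After the correction for length and GC content the value with sh#16 was 0.19 (adjusted p = 0.0339) and no longer called, and that with sh#87 was -0.46 (adjusted p = 2.12e-04). NOP56, a scaffold of the particle, was at 220.2, 198 and 197 CPM in NT, 177, 181 and 183 CPM with sh#16 and 167, 164 and 164 CPM with sh#87. The shift was small, without overlap, and called with sh#87 (-0.31 ± 0.060, adjusted p = 0.00107) but not with sh#16 (-0.18 ± 0.060, adjusted p = 0.0200), where it passed without NT replicate 3 (-0.24, adjusted p = 0.0045) and after the correction for length and GC content (-0.27, adjusted p = 0.00732). NOP58, its paralog and partner, had the widest spread of all members within NT, from 95.8 to 231 CPM. Its mean was 159.5 ± 67.9 CPM in NT, 88.0 ± 7.203 CPM with sh#16 (-0.86 ± 0.26, adjusted p = 0.0148, not called) and 65.6 ± 6.85 CPM with sh#87 (-1.28 ± 0.26, adjusted p = 0.00161). The result with sh#16 depended on NT replicate 3, and without it the value was -1.15 (adjusted p = 9.21e-05).

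The box H/ACA proteins did not move alike. Of the 5, 3 fell with both shRNAs, beside 30.2% of all genes lower with sh#16 and 33.6% with sh#87. DKC1, dyskerin, the pseudouridine synthase (chrX:154762864-154777689), was at 186, 165 and 142 CPM in NT, 64.9, 63.9 and 60.6 CPM with sh#16 and 40.5, 38.8 and 41.5 CPM with sh#87. The 3 groups stood clear of each other, with 38.5% and then 24.6% of the NT level (-1.38 ± 0.10, adjusted p = 2.16e-06 and -2.03 ± 0.10, adjusted p = 1.57e-07). GAR1, a core protein at the catalytic side of the particle, fell from 32.7 ± 6.31 CPM to 13.1 ± 1.16 CPM and 9.08 ± 1.21 CPM (-1.31 ± 0.15, adjusted p = 6.31e-05 and -1.84 ± 0.16, adjusted p = 5.90e-06). NOLC1, a phosphoprotein that accompanies snoRNPs in the nucleolus and Cajal bodies, fell from 354 ± 86.8 CPM to 225 ± 5.18 CPM and 159.7 ± 12.9 CPM (-0.66 ± 0.16, adjusted p = 0.00458 and -1.15 ± 0.16, adjusted p = 1.33e-04). The call of NOLC1 with sh#16 was lost without NT replicate 2 and without each of the sh#16 libraries in turn, with adjusted p from 0.0155 to 0.0189.

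The smallest core proteins of the particle behaved otherwise. NOP10, which bridges dyskerin and the guide RNA, was at 47.0, 47.1 and 44.2 CPM in NT, 48.9, 49.8 and 42.2 CPM with sh#16 and 30.6, 25.2 and 27.6 CPM with sh#87. The sh#16 libraries overlapped with NT (0.027 ± 0.10, adjusted p = 0.808), and all sh#87 libraries were lower (-0.73 ± 0.10, adjusted p = 9.46e-05). NHP2, an RNA-binding core protein, was at 28.4, 30.5 and 32.3 CPM in NT, 38.3, 39.1 and 39.9 CPM with sh#16 and 30.3, 23.9 and 20.5 CPM with sh#87. The sh#16 libraries lay above NT and sh#87 replicate 1 lay within the NT range, and neither value was called (0.36 ± 0.13, adjusted p = 0.0301 with sh#16 and -0.28 ± 0.13, adjusted p = 0.0715 with sh#87). Without sh#87 replicate 1 both passed, at 0.37 (adjusted p = 0.00621) and -0.44 (adjusted p = 0.0044), and the length and GC correction turned the value with sh#16 to -0.041 and called that with sh#87 lower (-0.63, adjusted p = 4.41e-04).

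Assembly of the small subunit starts with a large particle on the nascent precursor. Of the 12 genes of this group 8 fell with each shRNA, beside 30.2% of all genes lower with sh#16 and 33.6% with sh#87. UTP20, a long scaffold protein of that particle (chr12:101280105-101386618), was at 99.4, 94.4 and 85.4 CPM in NT, 22.0, 24.3 and 24.7 CPM with sh#16 and 21.4, 22.2 and 21.9 CPM with sh#87. The knockdown groups overlapped with each other and stood far below NT, with 25.5% and 23.4% of its level left (-1.97 ± 0.081, adjusted p = 1.17e-07 and -2.09 ± 0.082, adjusted p = 5.36e-08). WDR43, a WD repeat protein of the subcomplex that couples transcription to processing, was at 329, 272 and 185 CPM in NT, 81.4, 83.3 and 84.5 CPM with sh#16 and 64.0, 58.5 and 59.7 CPM with sh#87. The NT libraries spread from 185 to 329 CPM, and all stood above the knockdown libraries (-1.66 ± 0.17, adjusted p = 2.99e-05 and -2.11 ± 0.18, adjusted p = 4.94e-06).

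Partners of WDR43 in the same subcomplex had smaller values. WDR75 gave -1.26 ± 0.17, adjusted p = 1.60e-04 with sh#16 and -1.43 ± 0.17, adjusted p = 5.54e-05 with sh#87. UTP4 gave -0.67 ± 0.059, adjusted p = 9.41e-06 and -0.85 ± 0.059, adjusted p = 1.39e-06. HEATR1, the largest of them, was at 119, 109 and 106 CPM in NT, 85.7, 82.1 and 83.3 CPM with sh#16 and 84.2, 97.3 and 101 CPM with sh#87. It is the only member called lower with sh#16 (-0.41 ± 0.082, adjusted p = 0.00154) and not with sh#87 (-0.24 ± 0.081, adjusted p = 0.0232), while the direct test between the shRNAs was not called (0.17 ± 0.082, adjusted p = 0.135), and without NT replicate 3 the value with sh#87 passed at -0.29 (adjusted p = 0.00729).

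Other factors of the small subunit ranged widely. NOP14, an assembly factor of the early particle, fell to 46.1% and 32.3% of NT (-1.12 ± 0.18, adjusted p = 4.02e-04 and -1.63 ± 0.18, adjusted p = 2.97e-05). TSR1, a GTPase-like factor of cytoplasmic maturation, fell to 48.9% and 43.7% (-1.03 ± 0.085, adjusted p = 6.05e-06 and -1.19 ± 0.085, adjusted p = 1.66e-06). NAT10, which acetylates the ribosomal RNA of the small subunit, fell to 62.3% and 57.3% (-0.68 ± 0.067, adjusted p = 1.94e-05 and -0.80 ± 0.067, adjusted p = 4.73e-06). These 3 stood below NT in every knockdown library. BYSL, bystin, was at 22.8, 27.2 and 30.8 CPM in NT, 23.8, 23.6 and 23.3 CPM with sh#16 and 18.0, 22.4 and 18.5 CPM with sh#87. Its call with sh#87 (-0.46 ± 0.12, adjusted p = 0.00802) was lost without NT replicate 2, sh#87 replicate 1, sh#87 replicate 3 or any sh#16 library, with values between -0.46 and -0.39. After the length and GC correction BYSL passed as lower with sh#16 too (-0.50, adjusted p = 3.81e-04). RRP9, which binds the U3 small nucleolar RNA, RCL1, related to RNA cyclases, and RRP12, an adaptor for export, were not called with either shRNA. RRP9 gave 0.12 and -0.068, RCL1 -0.019 and -0.37, and RRP12 -0.28 and 0.10. Without NT replicate 1, RRP12 passed as lower with sh#16 (-0.49, adjusted p = 9.85e-04) and RCL1 with sh#87 (-0.46, adjusted p = 0.00297). After the length and GC correction RRP9 was called lower with both shRNAs, at -0.40 (adjusted p = 0.00331) with sh#16 and -0.59 (adjusted p = 2.56e-04) with sh#87. So was RRP12, at -0.69 (adjusted p = 2.15e-05) and -0.39 (adjusted p = 9.97e-04).

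Among the 11 genes of large subunit assembly 9 fell with each shRNA, beside 30.2% of all genes with sh#16 and 33.6% with sh#87. RSL1D1, a nucleolar protein with a ribosomal L1 domain (chr16:11833850-11851542), was at 648, 554 and 416 CPM in NT, 142, 156 and 148 CPM with sh#16 and 98.6, 84.3 and 89.4 CPM with sh#87. The lowest NT library was far above the highest knockdown library, and 27.6% and 16.8% of the NT level were left (-1.86 ± 0.15, adjusted p = 4.94e-06 and -2.57 ± 0.15, adjusted p = 5.02e-07). NIFK, which binds the proliferation antigen Ki-67 (chr2:121726945-121736875), was at 154, 116 and 91.6 CPM in NT, 45.4, 47.2 and 48.5 CPM with sh#16 and 26.9, 26.5 and 27.2 CPM with sh#87. It stood clear of NT with sh#16 (-1.36 ± 0.16, adjusted p = 5.71e-05) and lower again with sh#87 (-2.17 ± 0.16, adjusted p = 2.40e-06). The antisense gene NIFK-AS1 held between 15.3% and 26.3% of the counts of NIFK and NIFK-AS1 together. Whether the counting used strand is not stated.

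PES1, BOP1 and WDR12 form the PeBoW complex, and PES1 and WDR12 were called lower with both shRNAs. PES1 was at 71.7, 76.3 and 76.0 CPM in NT, 55.4, 57.3 and 52.6 CPM with sh#16 and 49.9, 48.8 and 45.8 CPM with sh#87. It fell modestly, with no overlap (-0.44 ± 0.066, adjusted p = 2.71e-04 and -0.63 ± 0.066, adjusted p = 1.97e-05). WDR12 fell more, to 41.9% and 37.7% of NT (-1.26 ± 0.12, adjusted p = 1.89e-05 and -1.41 ± 0.12, adjusted p = 6.58e-06). BOP1 was at 46.1, 64.5 and 102 CPM in NT, 124, 129 and 125 CPM with sh#16 and 121, 126 and 113 CPM with sh#87. Its NT libraries differed by more than 2-fold and all lay below the knockdown libraries, and neither value passed the threshold (0.83 ± 0.23, adjusted p = 0.0101 and 0.76 ± 0.23, adjusted p = 0.0141). Without NT replicate 1 the value with sh#16 was 0.58 (adjusted p = 0.00905), and without NT replicate 3 the values were 1.17 with sh#16 and 1.11 with sh#87 (adjusted p = 8.76e-06 and 1.05e-05). After the length and GC correction BOP1 gave -0.023 with sh#16 and -0.18 with sh#87, the latter called lower (adjusted p = 0.00886).

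The other large subunit factors included NOP2, an RNA methyltransferase, which gave 0.054 and 0.033 and was not called. GNL3, nucleostemin, a GTP-binding protein of stem and cancer cells, fell from 164 ± 34.8 CPM to 88.3 ± 1.32 CPM and 71.7 ± 2.26 CPM (-0.89 ± 0.13, adjusted p = 2.75e-04 and -1.20 ± 0.14, adjusted p = 3.38e-05). NOP16 fell to 54.8% and 37.4% of NT, and EBNA1BP2, a scaffold of early large subunit particles, to 50.9% and 42.8%. EBNA1BP2 lost its call with sh#16 without NT replicate 2 or any of the sh#16 libraries, with adjusted p from 0.01004 to 0.0168. RRS1, which brings a small ribosomal RNA into the particle, gave -0.74 ± 0.11, adjusted p = 2.96e-04 and -0.96 ± 0.11, adjusted p = 4.47e-05, and PPAN gave -0.88 ± 0.085, adjusted p = 1.72e-05 and -0.82 ± 0.085, adjusted p = 1.93e-05. The antisense gene RRS1-AS1 held between 0.881% and 37.2% of the counts of RRS1 and RRS1-AS1 together. The readthrough gene PPAN-P2RY11 held between 0.192% and 7.41% of those of PPAN and PPAN-P2RY11 together. NOP14-AS1 held between 6.40% and 39.3% of those of NOP14 and NOP14-AS1 together. Values of RRS1, PPAN and NOP14 are therefore less certain.

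Of the 6 genes of nucleolar proteins with several functions 5 fell with both shRNAs, all of them at least 2-fold. Of all genes, 15.5% were called lower by at least 2-fold with sh#16 and 19.9% with sh#87. NCL, nucleolin, a histone chaperone and RNA-binding protein of the nucleolus (chr2:231453531-231464484), was at 2226, 1591 and 979 CPM in NT, 429.5, 459 and 454 CPM with sh#16 and 278, 239 and 250.9 CPM with sh#87. The NT libraries spread more than 2-fold, and the lowest of them was more than 2 times as high as the highest knockdown library. With sh#16 28.0% of the NT level was left (-1.84 ± 0.24, adjusted p = 1.32e-04) and with sh#87 16.0% (-2.64 ± 0.25, adjusted p = 1.12e-05). NPM1, nucleophosmin, a chaperone that shuttles between nucleolus and cytoplasm and is often mutated in AML (chr5:171387116-171410900), was at 1899, 1405 and 1001 CPM in NT, 568, 586 and 601 CPM with sh#16 and 357, 314 and 326 CPM with sh#87. The groups were separate, with 40.8% and 23.2% left (-1.29 ± 0.19, adjusted p = 2.71e-04 and -2.11 ± 0.20, adjusted p = 1.00e-05). NPM1 has many pseudogenes, and the 6 counted here held between 1.76% and 4.17% of the counts of NPM1 and these pseudogenes together.

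PA2G4, a proliferation-associated protein that binds ribosomal RNA and ErbB3 (chr12:56104559-56113910), was at 530.2, 503 and 351 CPM in NT, 191, 196 and 185 CPM with sh#16 and 136, 110.3 and 129.5 CPM with sh#87. Every knockdown library lay below every NT library, and 41.3% and 27.2% of the NT level remained (-1.28 ± 0.15, adjusted p = 5.46e-05 and -1.88 ± 0.15, adjusted p = 3.55e-06). Its pseudogenes PA2G4P4 and PA2G4P5 held less than 1% as many counts. DDX21, an RNA helicase of the nucleolus (chr10:68956170-68985068), was at 736, 623 and 491 CPM in NT, 279, 275 and 280.5 CPM with sh#16 and 216, 209 and 213 CPM with sh#87. It fell without overlap to 45.2% and 34.5% (-1.15 ± 0.13, adjusted p = 3.80e-05 and -1.53 ± 0.13, adjusted p = 4.33e-06). LYAR, a zinc finger protein of the nucleolus, fell from 27.0 ± 11.3 CPM to 11.1 ± 0.767 CPM and 7.91 ± 0.512 CPM (-1.27 ± 0.26, adjusted p = 0.00161 and -1.77 ± 0.26, adjusted p = 2.08e-04). MYBBP1A, which binds MYB and represses ribosomal RNA synthesis, did not pass with either shRNA (-0.10 ± 0.13, adjusted p = 0.514 and -0.19 ± 0.13, adjusted p = 0.202), and without NT replicate 1 it passed as lower with sh#87 (-0.34, adjusted p = 0.00295). After the length and GC correction it was called lower with both, at -0.68 (adjusted p = 1.86e-06) and -0.86 (adjusted p = 2.38e-07).

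**Figure D3:**
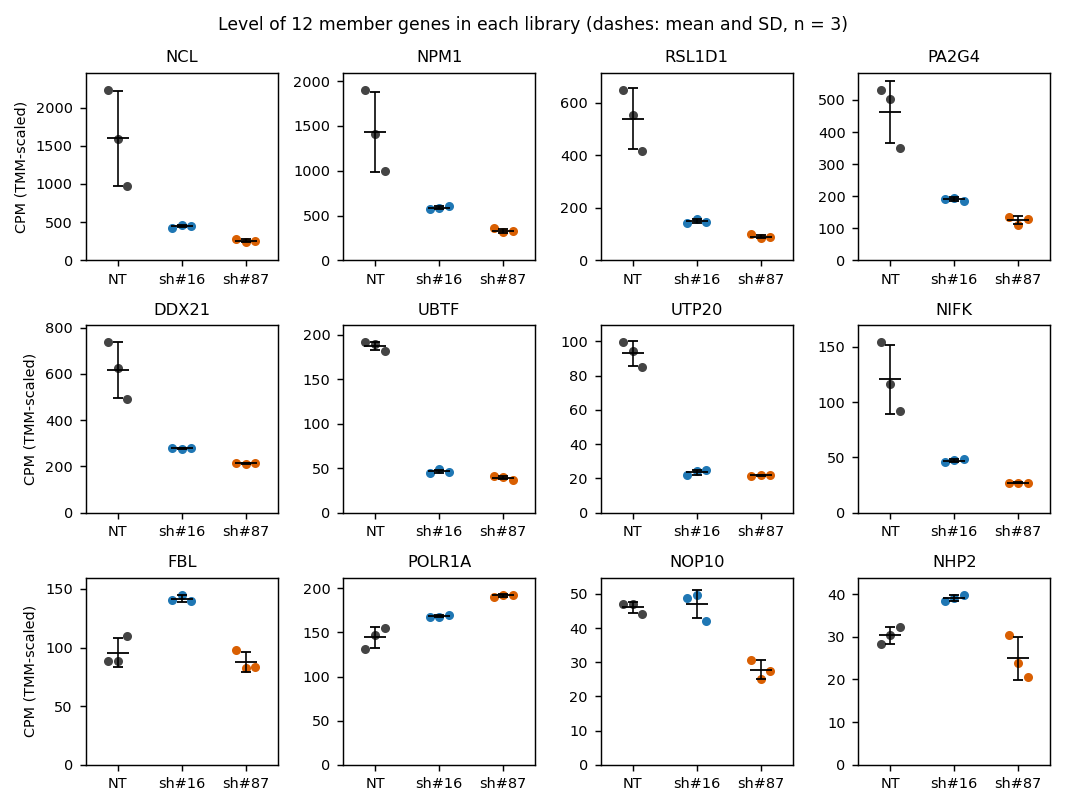
TMM-scaled CPM of 12 members in each of the 9 libraries, with a panel per gene, points for libraries and dashes for the mean and SD (n = 3). For NCL, NPM1, RSL1D1, PA2G4 and UBTF every knockdown library lies below every NT library, while the FBL libraries lie above NT with sh#16 and the POLR1A libraries with both shRNAs.

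The panels of single genes show how the spread differs between groups, wide in NT and narrow after knockdown. Over the members the coefficient of variation between libraries had a median of 19.0% in NT, 3.12% with sh#16 and 4.75% with sh#87, beside 17.4%, 5.09% and 6.87% over all genes tested. Levels between genes are compared per kilobase of transcript. NPM1 was the most abundant member in NT with 1087 CPM per kilobase, ahead of NCL with 408 and PA2G4 with 193. The lowest was UTP20 with 10.3 CPM per kilobase. After sh#87 NPM1 was still first with 252, but NOP56 with 86.4 and FBL with 77.9 CPM per kilobase then stood above NCL with 65.2.

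The shRNAs were also compared directly, which asks whether the members fell further with sh#87. In the fit of all 3 groups 7 members were lower with sh#87 than with sh#16 and 0 were higher, or 16.7% lower, beside 9.42% of all genes lower and 8.29% higher. The members' median log2 difference was -0.26, that of all genes -0.016, and 38 of the 42 members were fitted below 0. Every sh#87 library lay below every sh#16 library for 33 members, beside 34.3% of all genes tested. NIFK (-0.81 ± 0.16, adjusted p = 0.00534), NOP10 (-0.76 ± 0.10, adjusted p = 7.00e-04) and RSL1D1 (-0.71 ± 0.14, adjusted p = 0.00600) had the largest called differences. FBL, DKC1 (-0.65 ± 0.10, adjusted p = 0.00140), NHP2 (-0.65 ± 0.13, adjusted p = 0.00583) and POLR1B (-0.36 ± 0.058, adjusted p = 0.00208) were the others called. NPM1 (-0.82 ± 0.19, adjusted p = 0.0114), NCL (-0.81 ± 0.24, adjusted p = 0.0301), PA2G4 (-0.60 ± 0.15, adjusted p = 0.0132) and DDX21 (-0.39 ± 0.12, adjusted p = 0.0399) had similar or smaller differences above the threshold. MECOM was itself lower with sh#87 than with sh#16 (-0.43 ± 0.089, adjusted p = 0.00661), and so was MYC (-1.36 ± 0.13, adjusted p = 2.35e-04). The call of MECOM was lost without NT replicate 2 or any library of sh#16 or sh#87, with values from -0.44 to -0.42.

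The count of 7 depended on the NT libraries, whose wide spread enters the shared estimate. A limma-voom fit with a weight per group called 23 members lower and 2 higher with sh#87, beside 23.2% of all genes lower and 22.1% higher. A fit of the sh#87 and sh#16 libraries alone called 24 lower and 2 higher, beside 24.6% of all genes lower and 23.5% higher. Leaving out NT replicate 3 gave 19 lower, beside 16.8% of all genes. Leaving out NT replicate 1 gave 13, beside 14.4%, and leaving out sh#16 replicate 1 gave 3, beside 3.89%. NPM1, NCL, PA2G4 and DDX21 passed in the fits without NT replicate 1 or without NT replicate 3, and with sh#87 and sh#16 alone. NIFK and RSL1D1 lost their calls when NT replicate 2 or any library of sh#16 or sh#87 was left out, with adjusted p of 0.0109 to 0.0297, and POLR1B lost its call without any library of sh#16 or sh#87. FBL, NOP10 and DKC1 kept their calls in all 19 alternatives. The call of NHP2 was lost without NT replicate 2, any sh#16 library, or replicate 2 or 3 of sh#87.

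**Figure D4:**
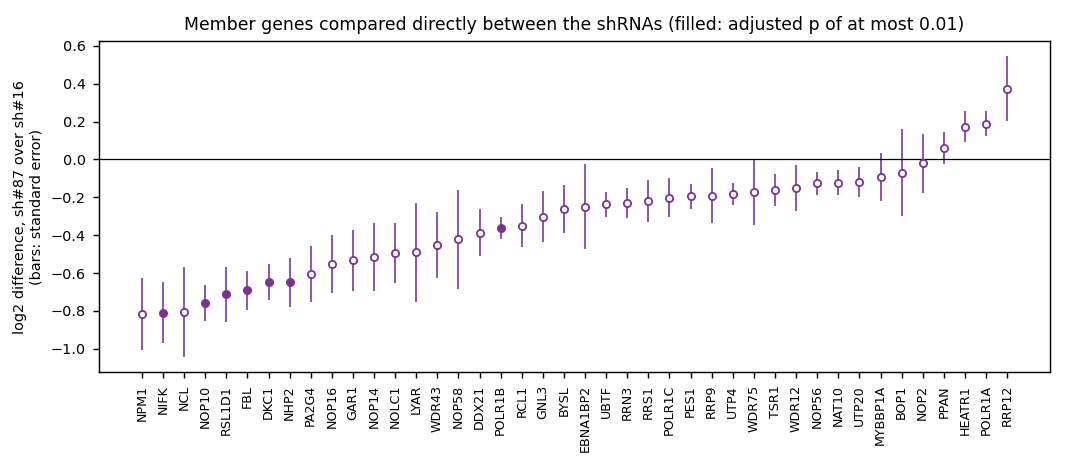
Log2 difference between sh#87 and sh#16 for each of the 42 members with its standard error; filled points have an adjusted p of at most 0.01. The 7 filled points lie between -0.81 and -0.36, and 38 of the 42 points lie below 0.

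In the ordered plot of differences the members above 0 are RRP12, POLR1A, HEATR1 and PPAN. POLR1A and RRP12 were the 2 members called higher with sh#87 by the fit with weights, and neither passed in the fit of 3 groups (0.19 ± 0.067, adjusted p = 0.0565 and 0.37 ± 0.17, adjusted p = 0.126).

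A wider list of 126 other ribosome biogenesis genes, written by role, moved in the same direction against NT with smaller values. With sh#16, 63 of the 126 were lower (50%, beside 30.2% of all genes) and 17 higher, with a median of -0.44. With sh#87, 73 were lower (57.9%, beside 33.6%) and 18 higher, with a median of -0.62. Between the shRNAs 12 were lower with sh#87 (9.52%, near the 9.42% of all genes) and 4 higher, beside 8.29% of all genes (median -0.16). The 13 genes of the RNA exosome, the nuclease that trims the precursor, gave 8 lower with sh#16 and 11 with sh#87, with 0 higher in each. Of 47 other genes of small subunit assembly 24 fell with sh#16 and 29 with sh#87, and of 47 of large subunit assembly 24 and 25 fell. Genes of snoRNP assembly were mixed, with 3 of 9 lower with each shRNA and 3 and 2 higher.

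The lowest of the wider list were NSA2 and BRIX1, factors of large subunit assembly, UTP25, of the small subunit, and MAK16, of the large subunit. NSA2 was at 236, 173 and 88.4 CPM in NT, 52.2, 56.0 and 54.4 CPM with sh#16 and 45.1, 33.4 and 38.5 CPM with sh#87. UTP25 was at 67.9, 65.8 and 52.9 CPM in NT, 19.3, 18.9 and 17.6 CPM with sh#16 and 14.7, 14.6 and 15 CPM with sh#87. All knockdown libraries of both lay below NT (NSA2 -1.61 ± 0.29, adjusted p = 9.45e-04 and -2.09 ± 0.30, adjusted p = 1.71e-04, UTP25 -1.74 ± 0.10, adjusted p = 8.29e-07 and -2.08 ± 0.10, adjusted p = 1.99e-07). BRIX1 was at 95.8, 89.6 and 74.2 CPM in NT, 25.8, 25.2 and 29.2 CPM with sh#16 and 23.1, 20.5 and 22.4 CPM with sh#87 (-1.70 ± 0.11, adjusted p = 1.44e-06 and -1.98 ± 0.11, adjusted p = 3.81e-07). MAK16 was at 148, 129 and 107 CPM in NT, 51.5, 48.1 and 51.3 CPM with sh#16 and 36.4, 34.5 and 35.99 CPM with sh#87 (-1.35 ± 0.11, adjusted p = 5.47e-06 and -1.84 ± 0.11, adjusted p = 5.63e-07). Neither overlapped with NT.

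The highest of the wider list rose with both shRNAs. TBL3, a WD repeat protein of the small subunit particle, was at 9.33, 15.9 and 29.4 CPM in NT, 50.4, 52.2 and 50.1 CPM with sh#16 and 67.3, 75.1 and 72.8 CPM with sh#87 (1.48 ± 0.32, adjusted p = 0.00270 and 1.97 ± 0.33, adjusted p = 4.22e-04). RUVBL2, an ATPase that helps to assemble snoRNPs, was at 35.99, 47.5 and 60.8 CPM in NT, 135, 140.5 and 135 CPM with sh#16 and 156, 149.6 and 145 CPM with sh#87 (1.51 ± 0.16, adjusted p = 2.67e-05 and 1.64 ± 0.16, adjusted p = 1.12e-05). Both were separate from NT, and both were lowest in NT replicate 1. NOP9, an RNA-binding protein, was at 70.3, 84.7 and 88.5 CPM in NT, 166, 167 and 161.9 CPM with sh#16 and 231, 239.8 and 232 CPM with sh#87 (1.02 ± 0.084, adjusted p = 6.15e-06 and 1.53 ± 0.085, adjusted p = 3.52e-07). PELP1, which acts in release of large subunit particles, was at 51.8, 65.5 and 86.3 CPM in NT, 124, 133 and 126 CPM with sh#16 and 146, 138 and 132 CPM with sh#87 (0.91 ± 0.15, adjusted p = 5.85e-04 and 1.03 ± 0.15, adjusted p = 2.22e-04). They too stood above NT in all 6 knockdown libraries.

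The members that fell had a lower median GC content of their transcripts than the rest. The 32 members lower with sh#87 had a median GC content of 46.8%, the other 10 members 57.2%, and all 13854 tested genes with a length 48.6%. Across the 42 members the log2 fold change went with GC content at a Spearman rho of 0.577 with sh#16 and 0.597 with sh#87, beside 0.277 and 0.277 across all genes. The log2 ratio of NT replicate 1 to NT replicate 3, which are libraries of the same group, went with it in the opposite sense at -0.665 across members and -0.650 across all genes. These are descriptions across genes that share libraries, and genes are not independent replicates. NT replicate 1 was the highest of the NT libraries for 24 members, and NT replicate 3 for 13, among them FBL, POLR1A, BOP1, NOP2 and MYBBP1A.

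**Figure D5:**
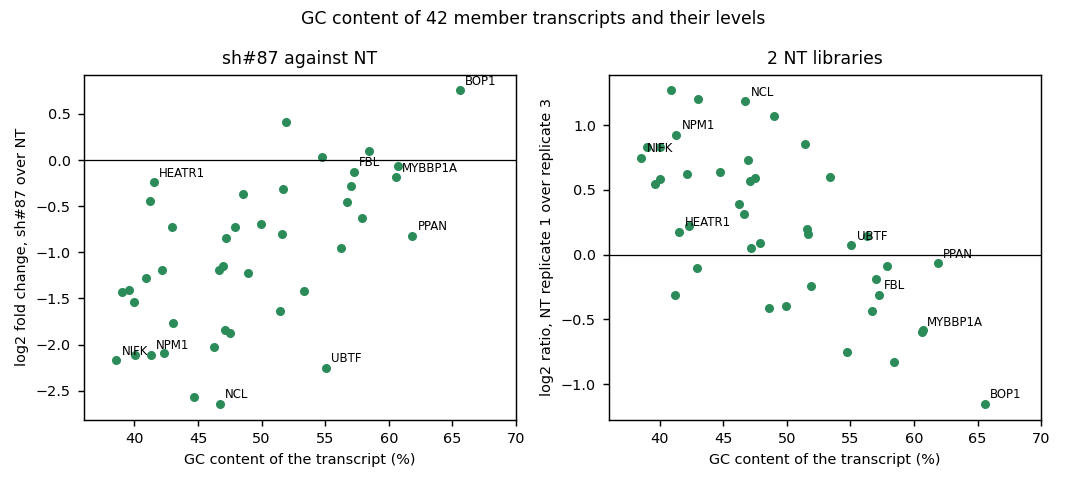
GC content of the transcript in percent on the horizontal axis against, for the 42 members, the log2 fold change with sh#87 and the log2 ratio of NT replicate 1 to NT replicate 3. Points rise to the right for the fold change (rho 0.597) and fall for the ratio within NT (rho -0.665).

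The members in the plots against GC content run from NIFK at 38.5% to BOP1 at 65.6%. Each library was therefore also corrected for its trend on length and GC content. After this 33 members were lower with sh#16 and 37 with sh#87 and 0 were higher, beside 36.8% and 38.8% of genes lower and 31.4% and 34.6% higher. NCL (-1.68 and -2.43), RSL1D1 (-1.65 and -2.33), UBTF (-2.26 and -2.54) and PA2G4 (-1.19 and -1.73) kept large falls. Without NT replicate 1, 30 members were lower with sh#16 and 34 with sh#87, beside 31.4% and 34.8% of genes. Without NT replicate 3 they were 30 and 33, beside 34.2% and 36.4%.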

How the data were processed

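Whole-number estimated counts per gene were deposited by the authors as 1 table of 9 libraries without normalization. Its header names salmon output, the methods name STAR gene counts on GRCh38, and the tool is not settled. The kit is stranded. The header stands 1 column left of the values.

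Counts were tested in R 4.3.3 with edgeR 4.0.16 (TMM, filterByExpr, quasi-likelihood test, 3 groups in 1 fit, 16312 genes, Benjamini-Hochberg) and called at an adjusted p of at most 0.01. The steps were tested on simulated data with the same spread in each group, so the wider spread of the NT libraries was not covered. Alternatives used DESeq2 1.42.0 and limma 3.58.1. The members and lists were chosen with earlier results of these data known. Library values are given for PA2G4, RSL1D1, DDX21, FBL and the 5 highest and 5 lowest called members per comparison, and for 4 at each end of the wider list called with both shRNAs. Transcript length and GC content came from GRCh37 transcripts matched by symbol and were found for 14019 of 16612 genes (84.4%). The loess correction (span 0.5, degree 1) used these. Promoters and gene positions came from RefSeq, and 36 members had a window. No per-library column was left unused. The result of 1 marker is not reported here.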

Additional observations from a re-analysis of the deposited data

Results flagged for a closer look

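In the direct test between the knockdown groups 7 members had unequal levels under the 2 shRNAs (edgeR, adjusted p of at most 0.01 over all genes tested). NIFK was lower with sh#87, at a log2 difference of -0.81 (adjusted p = 0.00534), with 47.0 ± 1.56 CPM with sh#16 and 26.9 ± 0.374 CPM with sh#87. The difference was -0.76 for NOP10 (adjusted p = 7.00e-04) and, for RSL1D1, -0.71 (adjusted p = 0.00600). FBL was higher than NT with sh#16 and not called with sh#87, and its difference was -0.69 (adjusted p = 0.00143). DKC1 gave -0.65 (adjusted p = 0.00140), NHP2 -0.65 (adjusted p = 0.00583) and POLR1B -0.36 (adjusted p = 0.00208). In all 7 every sh#87 library lay below every sh#16 library, as for 34.3% of all genes tested. This adds no support, since the 7 were called from the same libraries. Of all genes tested, 9.42% were called lower in this comparison. MECOM was also lower with sh#87 than with sh#16 (-0.43), and its part in these differences was not tested.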

How the results depend on the processing

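Calls were kept in all 19 alternatives that left the threshold as it was for 25 of 29 members under sh#16, 29 of 33 under sh#87 and 3 of 7 in the direct comparison. Upper-quartile scaling moved the median of all genes by 0.104 with sh#16 and 0.119 with sh#87, and the members' medians were then -0.70 and -0.94. No member was near the detection limit, the lowest count of any in a library being 155, and the spread of the NT libraries enters every fit that holds them. The alternatives changed the counts below, and the cause was not tested except where a stricter or looser threshold or fewer libraries gave it. Shares of all genes called were counted only for some settings. A count without its share does not set the members apart from other genes.

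Members higher with sh#16 numbered 2 under RLE scaling, no filter, a mean of at least 10 counts, the 2 groups alone, removal of mitochondrially encoded genes and limma-voom, 3 under DESeq2, 4 under upper-quartile scaling and at an adjusted p of 0.05, and 0 after the length and GC correction and at a log2 fold change of at least 1. With sh#87 they numbered 2 under upper-quartile scaling, DESeq2, limma-voom and an adjusted p of 0.05, and 0 after the length and GC correction and at a log2 fold change of at least 1. At a log2 fold change of at least 1, 16 and 21 members were lower with sh#16 and sh#87, and of the other ribosome biogenesis genes 3 were higher and 23 lower with sh#16, and 8 higher and 37 lower with sh#87. Between the shRNAs members lower numbered 24 with those 2 groups alone, 23 with limma-voom, 18 at an adjusted p of 0.05 and 0 at a log2 fold change of at least 1, and members higher 2, 2 and, under DESeq2, 1. The other genes gave 17 higher and 52 lower with 2 groups alone, 13 and 45 with limma-voom, 7 and 30 at an adjusted p of 0.05, 7 higher after the length and GC correction, and 0 and 0 at a log2 fold change of at least 1.

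Same-numbered libraries showed no sign of pairing, with correlations of their deviations from -0.137 to 0.0826 over 9 pairs. This cannot exclude a shared batch, since each group had 3 libraries and the NT libraries spread widely. With the replicate number as a block, 28 members were lower under sh#16, 31 under sh#87 and 4 in the direct comparison (4 of the other genes), and MECOM gave -0.43 between the shRNAs, no longer called. MECOM also missed the threshold there under RLE (-0.42) and upper-quartile scaling (-0.41), and leaving out a library gave -0.44 to -0.42 in that comparison.

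Leaving out each library in turn gave 25 to 30 members lower and 1 to 3 higher with sh#16, 31 to 34 lower and 1 to 2 higher with sh#87, and 3 to 19 lower and 0 to 2 higher between the shRNAs. The other genes gave 46 to 74 lower and 13 to 23 higher with sh#16, 64 to 79 and 12 to 24 with sh#87, and 2 to 32 and 0 to 8 between the shRNAs.

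Values that changed sign were all of members not called against NT in that comparison, except POLR1A with sh#87. After the length and GC correction, values with sh#16 were -0.085 for POLR1A, 0.037 for RRN3, -0.041 for NHP2, -0.16 for NOP10, -0.40 for RRP9, 0.011 for RCL1, -0.023 for BOP1 and -0.12 for NOP2, and with sh#87 -0.036 for POLR1A, -0.39 for RRP12, -0.18 for BOP1 and -0.14 for NOP2. Upper-quartile scaling gave 0.086 for RCL1 and 0.010 for MYBBP1A with sh#16 and 0.054 for RRP9 with sh#87, and the 2 groups alone gave 0.00079 for RCL1. Leaving out each library in turn, values with sh#16 ran from -0.025 (without NT replicate 3) to 0.10 for NOP10, which gave -0.015 without sh#16 replicate 2. They ran from -0.055 (without NT replicate 1) to 0.21 for RRP9, from -0.11 to 0.097 (without NT replicate 3) for RCL1, which gave 0.018 without sh#16 replicate 1, from -0.15 (without NT replicate 1) to 0.19 for NOP2, and from -0.26 to 0.030 (without NT replicate 3) for MYBBP1A. With sh#87 they ran from -0.24 to 0.015 (without NT replicate 3) for RRP9, which gave 0.010 without NT replicate 2, and, with the lowest value without NT replicate 1, from -0.11 to 0.28 for RRP12 and from -0.17 to 0.17 for NOP2.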
